A study of Mus musculus with 12 samples.

Results

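The genes described here lie around Intu on mouse chromosome 3. They are the 75 genes whose midpoint falls within 10 Mb of the midpoint of Intu (position 40618030, GRCm38), that is from 30618030 to 50618030, and that had at least 10 counts in at least 3 of 12 libraries. The count table used here holds 31078 genes, of which 9595 meet the same count minimum. Of the 296 genes of the window, 213 were under the minimum, 123 of them with no count in any library. Another 8 genes of the window (Intu, Sox2, Ccna2, Bbs7, Bbs12, Spry1, Fat4 and Sclt1) met it and were left out by the rule. Of the 75, 58 lie at lower coordinates than Intu and 17 at higher coordinates.

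RNA was sequenced from lungs of C57BL/6 mouse embryos at embryonic day 12.5, which came from natural matings of parents that carried an Intu knockout allele. The 4 groups were wild-type left lung, wild-type right lung, Intu knockout left lung and Intu knockout right lung, with 3 numbered libraries each. The labels name no further allele, Cre or agent, do not give the deleted part of Intu, and do not tie any library to an embryo. P-values therefore measure the spread between these libraries, which may be technical.

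Intu encodes inturned, a subunit of the CPLANE complex, which recruits intraflagellar transport proteins to the base of the primary cilium. Without a cilium, cells handle hedgehog signals poorly, and the hedgehog ligand of the airway epithelium is a main signal to the lung mesenchyme. Genes close to a targeted gene are inherited together with its mutant allele far more often than genes elsewhere, so they are commonly examined as a set of neighbours and not as a pathway.

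By the annotation (GENCODE vM21, GRCm38), 51 of the 75 are protein coding and 6 are processed pseudogenes, which are copies of a messenger RNA inserted back into the genome. Another 11 carry the biotype TEC, a label for transcribed stretches that still need experimental checks. The remaining ones are 4 antisense genes, 2 processed transcripts and 1 transcribed unprocessed pseudogene. Because the counts of a pseudogene depend on how reads are shared with its parent gene, a stretch of the one pseudogene called below is shown with its parent, the ribosomal protein gene Rpl21 on chromosome 5, and with a further copy outside the window. The stretch is bases 201 to 300 of the aligned transcripts, 5′ to 3′, from the GENCODE vM21 transcripts, and capitals mark bases that differ from Rpl21.
Rpl21: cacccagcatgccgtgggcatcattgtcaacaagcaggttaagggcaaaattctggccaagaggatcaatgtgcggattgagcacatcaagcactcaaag
Rpl21-ps10: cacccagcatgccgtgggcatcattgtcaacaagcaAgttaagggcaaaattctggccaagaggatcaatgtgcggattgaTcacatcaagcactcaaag
Rpl21-ps11: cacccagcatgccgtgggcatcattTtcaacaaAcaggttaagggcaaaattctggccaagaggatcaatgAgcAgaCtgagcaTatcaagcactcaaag
In this stretch Rpl21-ps10 differs from Rpl21 at 2 bases and Rpl21-ps11 at 6. The Rpl21-ps10 stretch is at chr3:38107623-38107722 and the Rpl21-ps11 stretch at chr3:96666683-96666782, both on the minus strand.

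Library totals ran from 10290103 to 10753386 counts, and the 75 genes together took 39241 to 42347 of them. Levels are normalised CPM (counts scaled to a common library total) of the chromosomes in the table, which is part of the genome. Marker genes of the labelled lung tissue were present in every library, with a summed level of 1101 to 1158 CPM in wild type and 1201 to 1247 CPM in the knockout. Summed levels of markers of other tissues differed between the genotypes in part: the 4 heart muscle markers summed to 52.2 to 84.6 CPM in wild-type and 18 to 37.8 CPM in knockout libraries, the 5 macrophage markers to 137 to 161 and 90.7 to 120 CPM, and the 4 neuronal markers to 26.6 to 46.1 and 20.6 to 23.2 CPM. With both sides summed 1 heart muscle, 1 macrophage and 2 neuronal markers were called lower in the knockout by the test below, and none higher. The 5 red blood cell markers overlapped between genotypes (2215 to 3522 CPM in wild type, 2509 to 3886 CPM in knockout libraries), and none was called. None of these markers was at 0 over all libraries. The 3 liver markers reached 86.4 CPM in 1 knockout left library against at most 8.96 CPM in wild type. Xist, a transcript of the inactive X in female cells, lay between 1270 and 2266 CPM in wild type and between 107 and 984 CPM in the knockout. The part that tissue composition or sex has in the differences below was not tested, and in bulk RNA fewer cells of a type and less RNA per cell cannot be told apart. Intu itself was 0.16 lower on the log2 scale in the knockout with both sides summed (SE 0.07, adjusted p = 0.392, edgeR's quasi-likelihood test), so its counts did not separate the labelled genotypes by this test, and genotypes are given as labelled.

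The first question was whether neighbours of Intu differed between genotypes in left lungs, in right lungs and in both. A gene was called when its p-value in edgeR's quasi-likelihood test, adjusted by the Benjamini-Hochberg method over all 9519 genes tested, was below 0.05. For both sides together, the left and right counts with the same number were summed, since such libraries deviated together from their group means, which leaves 3 sums against 3. Of the 75 neighbours, 69 had enough counts to be tested. In left lungs 1 of 69 was called (1.45%), against 1.18% of all tested genes. In right lungs 2 of 69 were called (2.9%), against 1.51% of all. With both sides summed 3 of 69 were called (4.35%), against 1.46% of all. The median log2 difference of the 69, knockout minus wild type, was -0.007 in left lungs, 0.013 in right lungs and -0.001 summed, beside 0.004, 0.004 and 0.005 over all tested genes. At an unadjusted p under 0.05 there were 12 of 69 in left lungs (17.4%, against 10.9% of all), 11 in right lungs (15.9%, against 13.5%) and 12 summed (17.4%, against 13.6%). Most of the neighbourhood thus gave no called difference, and the calls rest on few genes. The left-lung count was 0 without knockout left library 1, 2 or 3 or wild-type left library 2, and 2 without wild-type left library 1. The right-lung count was 1 without knockout right library 2 or 3 or wild-type right library 1. The summed count was 0 without the third knockout pair or the second wild-type pair, and 1 without the second knockout pair. A fit of all 12 libraries, which counts left and right lungs as separate samples, called 8 of 69 (11.6%, against 5.7% of all), adding Adad1, Cldn11, Dcun1d1, Exosc9 and Fgf2 to the 3. With limma-voom and each left and right pair as a random effect, 6 of 69 were called (8.7%, against 3.61%), these 8 without Adad1 and Cldn11.

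The called genes were Exosc9, Gm43820, Gm5148 and Rpl21-ps10. All 4 lie between 2.51 and 4.06 Mb from Intu, on the side of lower coordinates. Both right-lung calls, Exosc9 and Gm5148, were lower in the knockout (1.18% of all tested genes were called lower there and 0.336% higher). The left-lung call, Rpl21-ps10, was higher (0.305% of all were called higher there and 0.872% lower). With both sides summed, Gm43820 and Rpl21-ps10 were higher (0.357% of all) and Gm5148 was lower (1.1% of all). Exosc9 has a known function and the highest level of the 4. The other 3 had at most 27 counts in any library. A low-count gene that met the count minimum through 1 genotype only had to differ. This applies to Rpl21-ps10 and Gm42752, whose wild-type libraries were all under 10 counts, and to Gm5148, Sox2ot and Slc7a14, whose knockout libraries were. Gm43820 and Adad1 also needed knockout libraries to meet the minimum, so their differences are tied to the way they entered. Wild-type libraries had 10, 4, 7, 7, 8 and 8 counts of Gm43820 and 7, 1, 3, 10, 14 and 6 counts of Adad1.

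**Figure D1:**
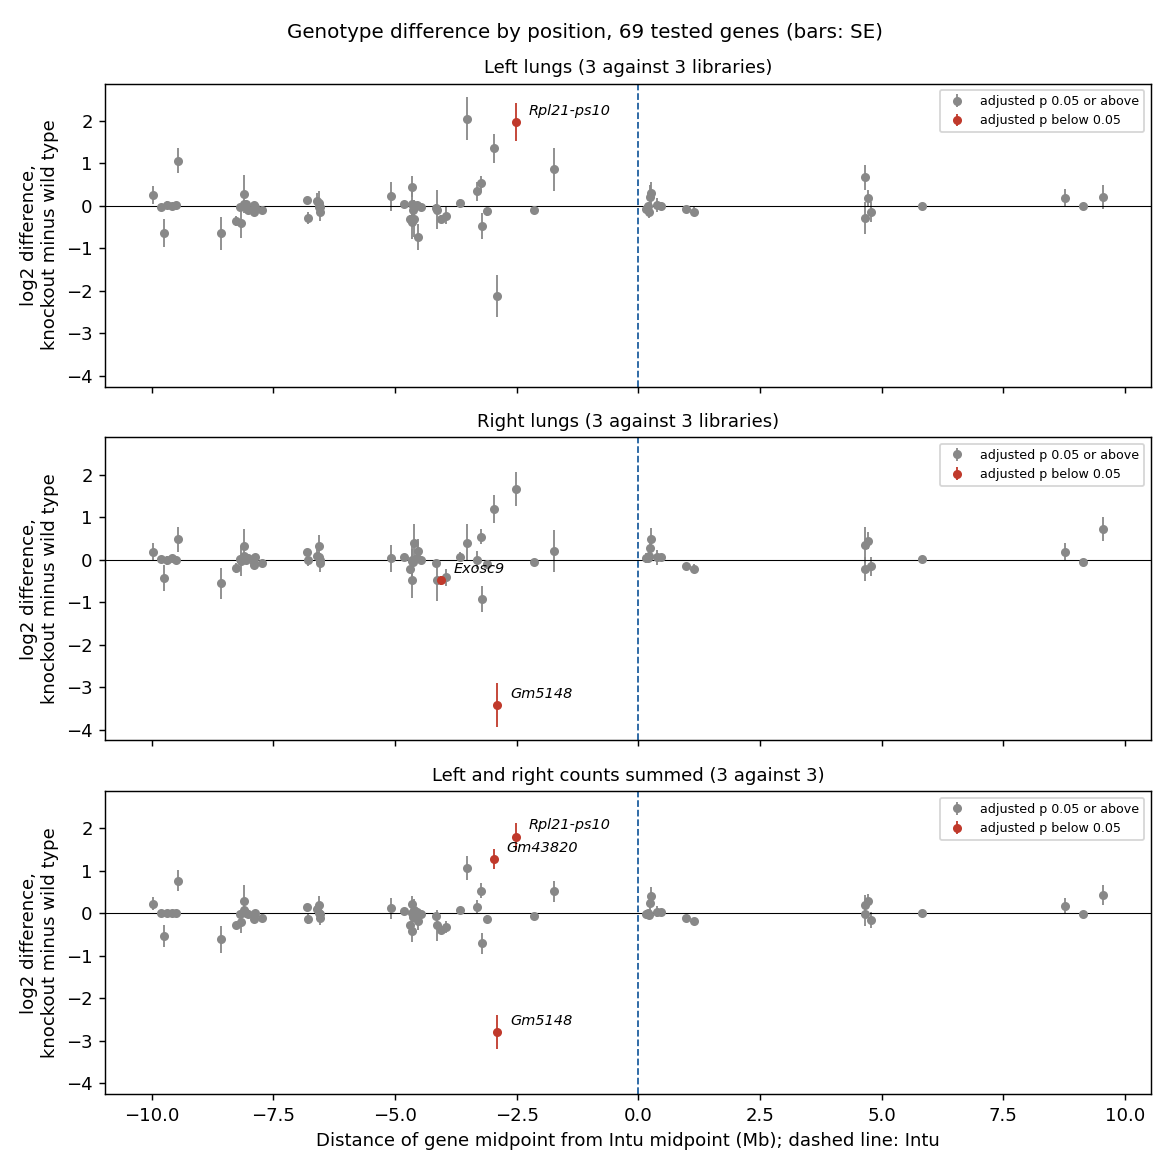
Log2 difference between knockout and wild type (vertical axis) against the distance of each gene's midpoint from that of Intu in Mb (horizontal axis), for the 69 tested genes in left lungs, right lungs and both summed, with SE bars. Called genes are red and named, and all lie between -4.06 and -2.51 Mb, while none of the genes at higher coordinates than Intu is called.

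Exosc9 encodes a subunit of the RNA exosome, the complex that trims and degrades RNA from its 3′ end. It lies on the plus strand at 36552606 to 36565727. In left lungs its 3 libraries had 53.1, 54.0 and 46.3 CPM in wild type and 43.9, 37.7 and 41.7 CPM in the knockout. In right lungs they had 60.6, 48.7 and 49.1 CPM in wild type and 39.7, 35.8 and 37.2 CPM in the knockout. Every knockout library was below every wild-type library on both sides. The log2 difference was -0.49 in right lungs (SE 0.10, adjusted p = 0.0211), -0.31 in left lungs (SE 0.10, adjusted p = 0.179) and -0.40 summed (SE 0.08, adjusted p = 0.0567, edgeR; 0.00242 with DESeq2). Its call in right lungs was lost without wild-type right library 1 (log2 difference -0.38, adjusted p = 0.0787), without knockout right library 2 (adjusted p = 0.0798) or 3 (0.09), and with only the 6 right libraries in the fit (0.0507). Its exons share 510 bases, 10.8% of their length, with Ccna2 on the opposite strand, and whether counting used strand is not given in the sources used here. Ccna2 differed by -0.01 on the log2 scale with both sides summed (adjusted p = 0.927).

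Gm5148 is a predicted gene on the minus strand at 37714190 to 37724490. Its libraries had 25, 11 and 10 counts in wild-type left lungs and 27, 22 and 20 in wild-type right lungs. In the knockout they had 5, 3 and 2 counts in left lungs and 2, 3 and 1 in right lungs. The groups did not overlap on either side, and the 6 knockout libraries held 16 counts in all against 115 in the 6 wild-type ones. The log2 difference was -3.42 in right lungs (SE 0.51, adjusted p = 0.00345), -2.79 summed (SE 0.39, adjusted p = 0.0159) and -2.13 in left lungs (SE 0.49, adjusted p = 0.0565). Gm5148 met the count minimum through wild-type libraries alone and so had to differ. The separation, these p-values and the settings that follow therefore lend its difference no support of their own. The right-lung call held in 12 of 12 alternative settings. The summed call held in 11 of 13 and was lost without the third knockout pair (adjusted p = 0.0729) or the second wild-type pair (0.0617). Of its 50-base windows 7.8% also occur in transcripts of another gene on the same strand and 9.6% on the opposite strand. Its best match among protein-coding transcripts, to Soat2, was 91.3% identical over 173 bases. Its exons share 396 bases, 10.2% of their length, with Rps23-ps1 on the opposite strand. Without a known strand setting, reads of these 2 genes cannot be told apart there.

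Gm43820, a TEC gene on the plus strand at 37644607 to 37647952, starts 8 bases past the end of Spry1 on the same strand. Spry1 encodes a feedback inhibitor of receptor tyrosine kinase signalling. Gm43820 had 0.96, 0.377 and 0.654 CPM in wild-type left lungs and 2.05, 1.34 and 1.73 CPM in knockout left lungs. In right lungs it had 0.668, 0.745 and 0.765 CPM in wild type and 1.46, 2.01 and 1.54 CPM in the knockout. All 6 knockout libraries were above all 6 wild-type libraries. Its wild-type counts of 10, 4 and 7 in left and 7, 8 and 8 in right lungs did not meet the count minimum without knockout libraries. This separation and the p-values and settings that follow are therefore no support of their own. The difference was 1.28 on the log2 scale with both sides summed (SE 0.23, adjusted p = 0.0415), 1.35 in left lungs (SE 0.34, adjusted p = 0.0813) and 1.19 in right lungs (SE 0.34, adjusted p = 0.116). The summed call held in 5 of 13 alternatives and was lost without any 1 of the 6 pairs (adjusted p between 0.0743 and 0.168), with DESeq2 (0.104) and with the replicate number as a block (0.13). Spry1 next to it differed by -0.30 summed (adjusted p = 0.135).

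Rpl21-ps10 is a processed pseudogene of Rpl21, which encodes a protein of the large ribosomal subunit, on the minus strand at 38107443 to 38107922. Its 3 libraries had 0.768, 0.377 and 0.187 CPM in wild-type left lungs and 1.37, 2.11 and 1.83 CPM in knockout left lungs. In right lungs they had 0.859, 0.373 and 0.765 CPM in wild type and 2.24, 2.59 and 1.54 CPM in the knockout. Again the 12 libraries separated fully by labelled genotype. Rpl21-ps10 met the count minimum through knockout libraries alone and so had to differ. This separation and the p-values and settings that follow are therefore no support of their own. The log2 difference was 1.97 in left lungs (SE 0.44, adjusted p = 0.0469), 1.81 summed (SE 0.32, adjusted p = 0.0345) and 1.66 in right lungs (SE 0.40, adjusted p = 0.0601). The left-lung call held in 6 of 12 alternatives and was lost with only the 6 left libraries (0.115) and without any of 5 single libraries: knockout left 1 (0.0542), 2 (0.133) and 3 (0.124) and wild-type left 2 (0.167) and 3 (0.159). The summed call was lost without knockout pair 2 (adjusted p = 0.0654) or 3 (0.0927), without wild-type pair 2 (0.15) or 3 (0.0966), and with the replicate number as a block (0.116).

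The pseudogene's 480 bases hold 7 mismatches to Rpl21, so the 2 are 98.5% identical, and 67.3% of its 50-base windows are found unchanged in a transcript of another gene. Its counts are therefore uncertain. Rpl21 itself had 3247, 4125 and 1812 counts in wild-type left lungs and 961, 355 and 1605 in knockout left lungs. In right lungs it had 3753, 3530 and 1663 counts in wild type, and knockout libraries had 936, 370 and 1835. The parent gene was thus low in knockout libraries 1 and 2 on both sides, while the groups overlapped in right lungs, and its summed log2 difference of -1.55 was not called (SE 0.49, adjusted p = 0.206). Rpl21-ps11, the other copy shown above, had 11 to 27 counts in wild type and 0 to 9 in the knockout, with a summed log2 difference of -2.19 (SE 0.66, adjusted p = 0.187). Rpl21-ps15 on the X chromosome, with 6 mismatches to Rpl21-ps10, differed by -0.36 (SE 0.16, adjusted p = 0.368). Rpl21-ps10 and these 3 relatives therefore lay on opposite sides of 0. Other Rpl21 copies were not compared. The part that the assignment of reads among these copies has in the pseudogene's difference was not tested.

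Between these genes lies Gm42752, a TEC gene on the plus strand at 37838468 to 37839573, chosen for mention after its values were seen. It had 0, 1 and 2 counts in wild-type left lungs and 3, 4 and 1 in wild-type right lungs. In the knockout it had 9, 10 and 8 counts in left lungs and 16, 9 and 16 in right lungs. It was below the level needed for the main test, and it entered the 75 through the knockout libraries alone, so its difference is given as counts only, 68 in the 6 knockout libraries against 11 in the 6 wild-type ones. Sox2ot, the long noncoding transcript that overlaps Sox2, was also picked after its values were seen and entered through the wild-type libraries alone. It had 9 to 13 counts in wild type and 3 to 6 in the knockout, with no overlap between the groups. When the count minimum of the membership rule was the filter over the whole table, 3 of 75 neighbours were called in left lungs, 3 in right lungs and 4 summed, beside 1.19%, 1.51% and 1.45% of all 9595 genes tested. The genes that this adds to the main calls are Gm42752 and, in left lungs, Sox2ot, both fixed to differ by the way they entered.

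**Figure D2:**
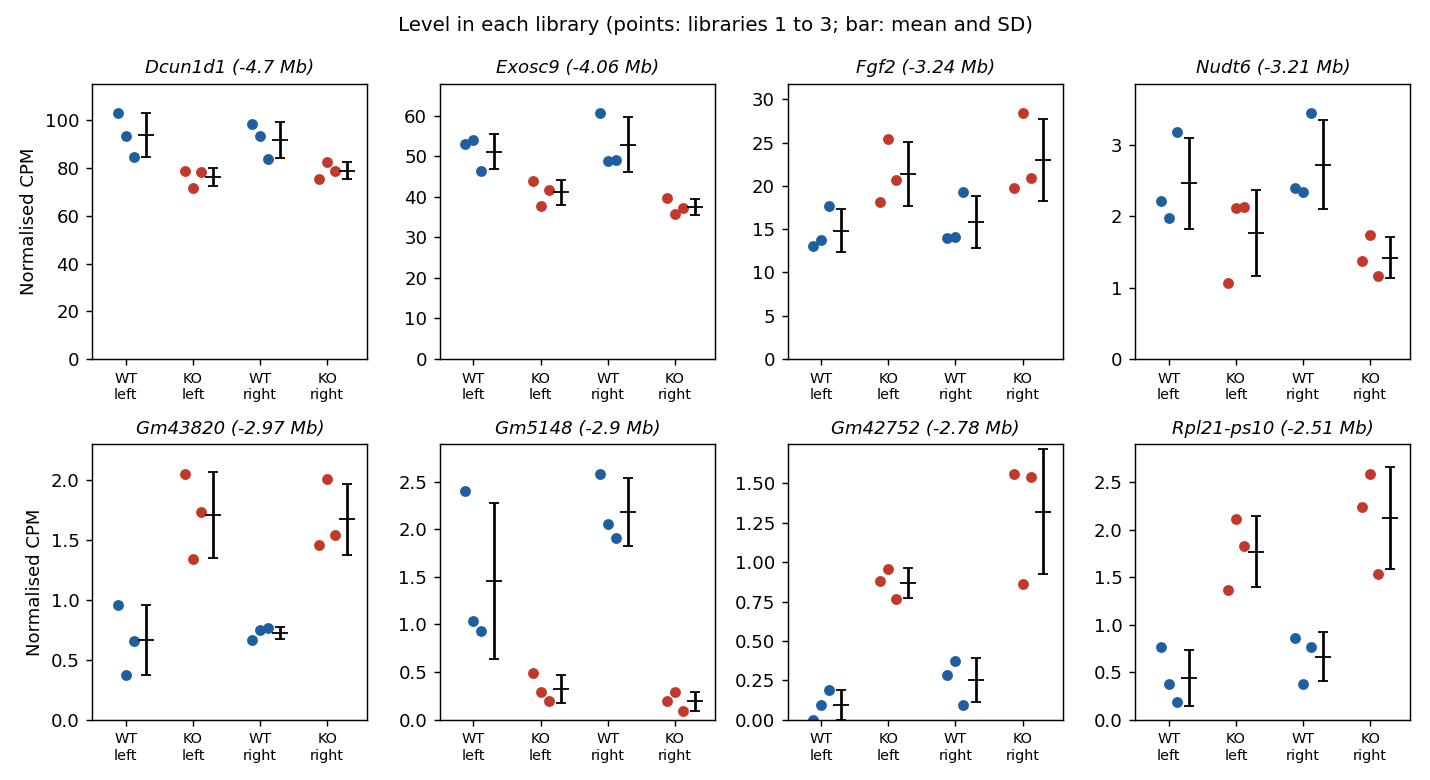
Normalised CPM (vertical axis) of 8 genes at 2.51 to 4.7 Mb from Intu in each library, by genotype (WT, wild type; KO, knockout) and side, with mean and SD of 3 libraries. All but Nudt6 show no overlap between genotypes on either side. Gm5148, Gm42752 and Rpl21-ps10 met the count minimum through 1 genotype only, and Gm43820 needed knockout libraries to meet it.

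The position of the calls was then described along the chromosome, with no test. Of 10 tested genes within 2 Mb of Intu none was called in any genotype comparison, and none had an unadjusted p under 0.05, a bin too thin to read a share from. Between 2 and 5 Mb, 3 of 28 were called summed (10.7%), 2 in right lungs (7.14%) and 1 in left lungs (3.57%). The genes called there were all among the 24 at lower coordinates than Intu. Between 5 and 10 Mb, edgeR called 0 of 31 in the 3 comparisons, with 3, 3 and 4 at an unadjusted p under 0.05 in left lungs, right lungs and summed. On the rest of chromosome 3, 23 of 796 tested genes were called summed (2.89%), and the share on the other chromosomes of the table ran from 0.886% to 1.82%. The summed share in the 2 to 5 Mb bin thus rests on 3 genes with at most 27 counts in any library, 1 of them a near copy of an expressed gene. Gm5148 and Rpl21-ps10 among them met the count minimum through 1 genotype only, so they had to differ and lend this share no support. Gm43820 needed knockout libraries to meet the minimum, so it lends this share no support of its own either. The fit of all 12 libraries called 7 of the 28 genes at 2 to 5 Mb (25%), which adds Adad1, Dcun1d1, Exosc9 and Fgf2 to the 3, and 1 of the 31 at 5 to 10 Mb (3.23%). Like Gm43820, Adad1 needed knockout libraries to meet the count minimum. In that fit 10.1% of the tested genes on the rest of chromosome 3 were called, and 3.66% to 6.4% on the other chromosomes. Counted by separation alone, 6 of the 69 had no overlap between the 6 knockout and 6 wild-type libraries (8.7%), against 4.02% of all tested genes. Of these 6, 5 lie at 2 to 5 Mb (17.9% of the 28, against 6.41% on the rest of chromosome 3). The 5 include Gm5148 and Rpl21-ps10, which had to differ by the way they entered, and Gm43820, which needed knockout libraries to enter. The 6 were Actl6a, Dcun1d1, Exosc9 and Gm5148, lower in the knockout (2.65% of all genes), and Gm43820 and Rpl21-ps10, higher (1.38%). On single sides, 16 of 69 separated in left lungs (23.2%, against 15.3% of all), 7 of them lower (8.26% of all) and 9 higher (7.01%). In right lungs 11 separated (15.9%, against 18.2% of all), 5 of them lower (9.71%) and 6 higher (8.46%). The neighbours' share was thus above that of all genes in left lungs and below it in right lungs, and these shares were not tested.

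**Figure D3:**
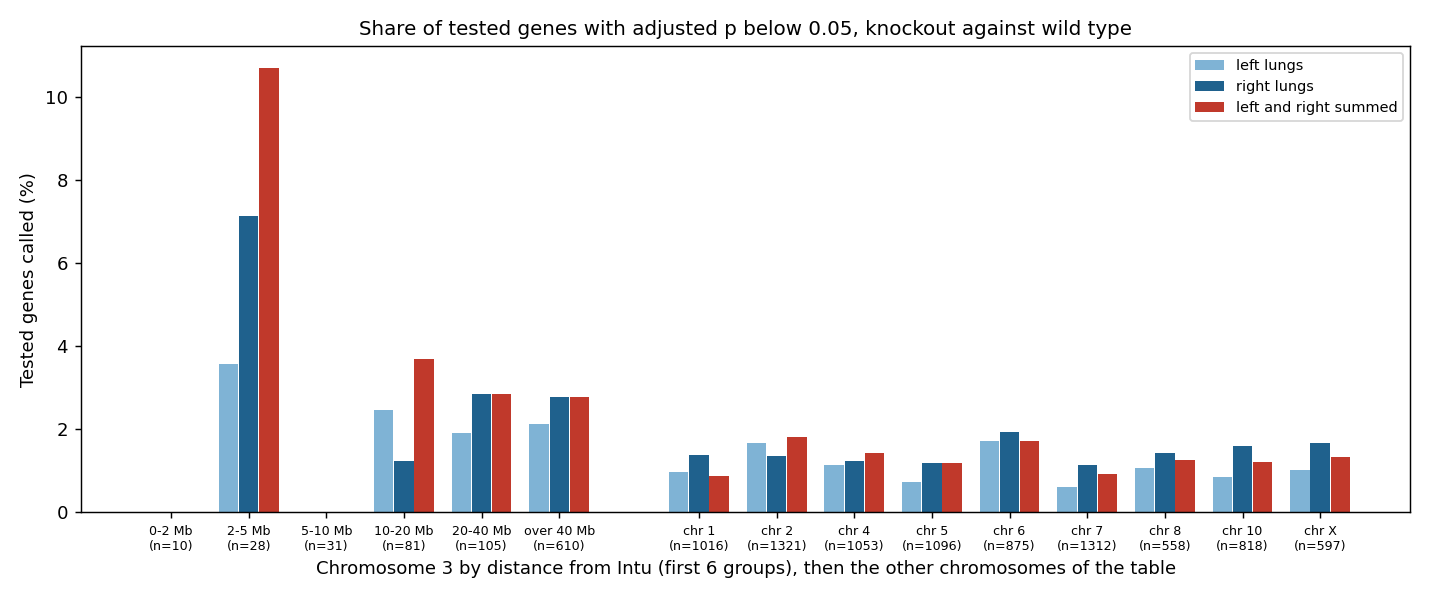
Share of tested genes called in % (vertical axis) for 6 distance bins of chromosome 3 around Intu, then for each other chromosome of the table, in left lungs, right lungs and both summed; n is the number of tested genes. The 2 to 5 Mb bin stands at 10.7% summed on 3 of 28 genes, while the bins within 2 Mb and from 5 to 10 Mb hold no called gene.

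Of the 8 tested genes next to Intu, 4 on each side, 6 were not called in any genotype comparison, and the other 2 are Gm5148 and Rpl21-ps10, described above. Plk4, the kinase that starts centriole duplication, lies 0.19 Mb away and had 169 to 183 CPM in all 12 libraries, with a summed log2 difference of 0.02 (SE 0.04, adjusted p = 0.881). Hspa4l, a heat shock protein gene and the nearest tested neighbour at 0.15 Mb, had 19.6 to 25.1 CPM in wild type and 20.6 to 25.5 CPM in the knockout (summed -0.02, SE 0.09, adjusted p = 0.961). Mfsd8, a lysosomal membrane protein gene, differed by -0.03 (SE 0.11, adjusted p = 0.948). Of the 8 these 3 showed the smallest differences, each within its SE. Gm2011, whose sequence matches Abhd18 at 97.9% over 625 bases, differed by 0.25 (SE 0.21, adjusted p = 0.662). On the side of lower coordinates, Ankrd50, an endosomal recycling gene, had 195 to 212 CPM in wild type and 190 to 207 CPM in the knockout (summed -0.07, SE 0.04, adjusted p = 0.501). C230034O21Rik had 0.566 to 4.49 CPM in wild type and 2.34 to 4.88 CPM in the knockout, with overlapping groups (summed 0.52, SE 0.25, adjusted p = 0.41). Of its exon bases 42.6% lie in exons of Fat4 on the opposite strand. Without a known strand setting, reads of the 2 genes cannot be told apart there.

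Grouped by what they do, the neighbours in 7 functional lists held 1 call. In the other 6 lists edgeR called none. An unadjusted p under 0.05 with both sides summed was found for 3 of 9 on the chromatin, transcription and ubiquitin list. It was found for 1 of 5 signalling genes, 1 of 7 mitochondrial genes, 1 of 8 transport genes and 0 of 2 protocadherin genes. On the centriole and cilium list, which includes the lysosomal gene Mfsd8, it was found for 0 of 3. The share over all tested genes was 13.6%. The group of RNA binding and translation genes had 6 tested members, of which Exosc9 fell in right lungs. Fxr1, an RNA-binding relative of the fragile X protein, differed by 0.02 summed (SE 0.06, adjusted p = 0.903), and Pabpc4l, a poly(A)-binding protein gene, by 0.01 (SE 0.05, adjusted p = 0.961). The 5 members other than Exosc9 were not called in any of the 3 comparisons.

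On the list of chromatin, transcription and ubiquitin genes, which also holds the endosomal recycling gene Ankrd50, none of 9 tested members was called. The summed difference was negative for 8 of 9, beside 48.2% of all tested genes, with a median of -0.095 beside 0.005. The 8 include Phc3 (-0.00, SE 0.08) and Skil (-0.00, SE 0.07), and the count of signs was not tested. Dcun1d1, which promotes neddylation of cullin ubiquitin ligases, had 103, 93.5 and 84.7 CPM in wild-type left lungs and 78.6, 71.7 and 78.3 CPM in knockout left lungs. In right lungs it had 98.3, 93.6 and 83.7 CPM in wild type and 75.3, 82.6 and 78.8 CPM in the knockout. All knockout libraries were below all wild-type ones, by a narrow margin in right lungs. Of its 50-base windows 20.6% also occur in transcripts of another gene on the same strand. Its difference was -0.26 summed (SE 0.07, adjusted p = 0.126), -0.30 in left lungs (adjusted p = 0.106) and -0.22 in right lungs (adjusted p = 0.236). It was called summed with DESeq2 (0.0417) and without the third wild-type pair (0.0429). Actl6a, an actin-like subunit of BAF chromatin remodelling complexes that was picked after its values were seen, had 228 to 237 CPM in wild type and 198 to 227 CPM in the knockout (summed -0.13, SE 0.05, adjusted p = 0.279). Skil, a repressor of SMAD signalling, had 93.1 to 114 CPM in wild type and 93.7 to 108 CPM in the knockout.

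Of 5 tested kinase, growth factor and G protein signalling genes none was called. Fgf2, a fibroblast growth factor, had 13.1, 13.7 and 17.7 CPM in wild-type left lungs and 18.1, 25.4 and 20.7 CPM in knockout left lungs. In right lungs it had 14.0, 14.1 and 19.3 CPM in wild type and 19.7, 28.4 and 20.9 CPM in the knockout. The groups stood just apart on each side, with knockout library 2 the highest. The difference was 0.54 summed (SE 0.17, adjusted p = 0.20) and of like size in left lungs (0.53, adjusted p = 0.27) and right lungs (0.54, adjusted p = 0.202). It was called summed with DESeq2 (0.0423). Pik3ca, the catalytic subunit of a phosphoinositide 3-kinase, had 147 to 175 CPM in wild type and 146 to 174 CPM in the knockout. Prkci, an atypical protein kinase C of the polarity complex, differed by 0.02 summed (SE 0.05, adjusted p = 0.927).

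Nudt6, of the mitochondrial list, is transcribed from the strand opposite to Fgf2, and 38.2% of its exon bases lie in exons of Fgf2. It had 2.21, 1.98 and 3.18 CPM in wild-type left lungs and 1.07, 2.11 and 2.12 CPM in knockout left lungs. In right lungs it had 2.39, 2.33 and 3.44 CPM in wild type and 1.37, 1.73 and 1.16 CPM in the knockout. The groups overlapped in left lungs and not in right lungs. Its difference was -0.70 summed (SE 0.25, adjusted p = 0.27), the opposite sign to that of Fgf2. Without a known strand setting, reads of this pair cannot be told apart where they overlap. Of the 7 tested mitochondrial genes none was called. Mfn1, which fuses outer mitochondrial membranes, had 90.0 to 94.1 CPM in wild type and 90.1 to 95.9 CPM in the knockout. Ndufb5, a subunit of respiratory complex I, differed by 0.01 summed (SE 0.06, adjusted p = 0.966).

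None of the 3 tested members of the centriole, cilium and cell division list was called. They were Plk4, Ccdc39 and Mfsd8, the last being the lysosomal membrane protein gene. Ccdc39, needed to assemble the inner dynein arms of motile cilia, had 8.11 to 10.5 CPM in wild type and 6.61 to 10.2 CPM in the knockout (summed -0.13, SE 0.12, adjusted p = 0.684). None of 8 tested membrane transport, channel and secretory genes was called. Cldn11, a tight junction protein, had 4.41, 4.43 and 3.92 CPM in wild-type left lungs and 12.5, 5.84 and 8.37 CPM in knockout left lungs. In right lungs it had 3.72, 5.78 and 6.12 CPM in wild type and 10.1, 5.27 and 6.45 CPM in the knockout. Knockout library 1 was the highest on both sides, and the groups overlapped in right lungs (summed 0.77, SE 0.25, adjusted p = 0.215). Without the first knockout pair the summed difference was 0.46, and without that right library the right-lung difference moved from 0.48 to 0.17, or to 0.30 without wild-type right library 1. Its difference of 1.06 in left lungs (SE 0.30, adjusted p = 0.123) was called with DESeq2 (0.0359). Sec62, part of the translocation machinery of the endoplasmic reticulum, had 201 to 213 CPM in wild type and 200 to 211 CPM in the knockout. Both protocadherin genes were uncalled: Pcdh10 had 29.9 to 45.1 CPM in wild type and 22.5 to 47.7 CPM in the knockout, and Pcdh18 differed by -0.02 summed (SE 0.06, adjusted p = 0.907). These adhesion genes varied more between libraries of a genotype than between genotypes.

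The list of predicted genes and pseudogenes was drawn by symbol and also holds protein-coding genes such as 4932438A13Rik and 1810062G17Rik. Of its 25 genes 21 were tested, and 2 of them rose and 1 fell with both sides summed, the genes described above. The summed median of the 21 was 0.118, against 0.005 over all tested genes. Other pseudogenes share sequence with their parents to different degrees. Gm9845 is identical to Cflar over 598 bases, Gm9791 matches Carhsp1 at 99.3%, Gm5846 matches U2af2 at 96.9% and Gm7733 matches Rpf2 at 96.3%. None of these 4 was called, and Gm9845 was too low to be tested.

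The neighbourhood was also compared between sides. A change of the genotype difference from left to right lungs was called for none of the 69 by edgeR's interaction test (0 called, 3 at an unadjusted p under 0.05, against 0% called and 1.3% at that p among all genes; DESeq2 called 0 of the 69). Adad1, a testis-enriched RNA-binding protein gene picked after its values were seen, was 2.05 higher on the log2 scale in left lungs (SE 0.50, adjusted p = 0.0704) and 0.40 higher in right lungs (adjusted p = 0.77). It had 7, 1 and 3 counts in wild-type left lungs and 10, 14 and 6 in wild-type right lungs. Knockout libraries had 10, 18 and 18 counts in left and 14, 11 and 14 in right lungs. Adad1 thus needed knockout libraries to meet the count minimum, and its difference is no support of its own. Between left and right lungs, 0 of 69 were called in wild type (2 at an unadjusted p under 0.05, against 2.62% of all genes) and 0 in the knockout (3, against 3.76%), beside 0.0105% and 0% of all tested genes called, and DESeq2 and the fit with pairs as a block called 0 of them as well. Over all genes DESeq2 called 0.116% in wild type and 0.042% in the knockout, and the fit with pairs called 0.662% and 0.452%. The levels of these genes thus showed no called difference between sides in either genotype.

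**Figure D4:**
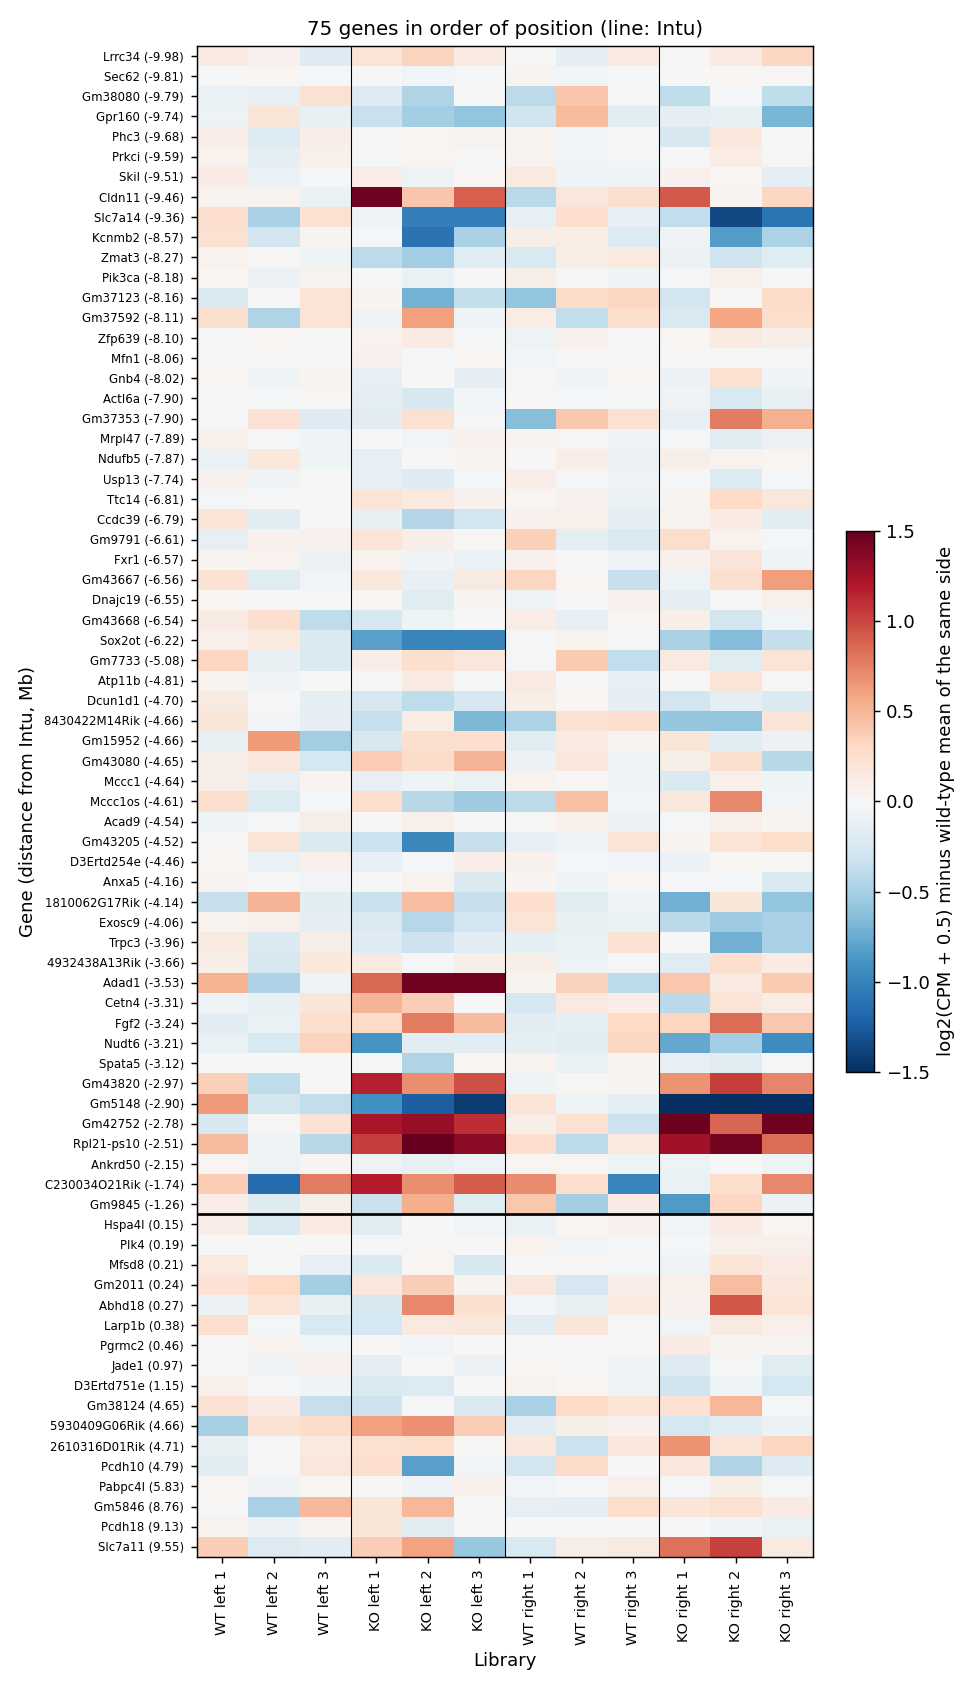
Each of the 75 genes (rows, in order of position, with distance from Intu in Mb) in each of 12 libraries (columns; WT, wild type; KO, knockout), as log2(CPM + 0.5) minus the wild-type mean of the same side; colours saturate at 1.5 in either direction. Rows from Gm43820 to Rpl21-ps10 change colour with genotype on both sides, while rows next to the Intu line, such as Plk4 and Mfsd8, stay pale. Of the former, Gm5148, Gm42752 and Rpl21-ps10 met the count minimum through 1 genotype only, and Gm43820 needed knockout libraries to meet it.

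Levels differed widely among the 75 genes. The mean level over all libraries ran from 0.508 to 380 CPM, with a median of 12.5. Per kilobase of exon, Anxa5, a phospholipid-binding annexin, stood highest at 137 CPM per kb, before Pcdh18 at 70.7 and Actl6a at 57.3. Slc7a14, an amino acid transporter family gene, was lowest at 0.0517 CPM per kb. The highest-expressed genes of the neighbourhood were all uncalled: Anxa5 had 238 to 258 CPM in wild type and 212 to 260 CPM in the knockout, with a summed difference of -0.07 (SE 0.07, adjusted p = 0.723). Slc7a11, the cystine transporter gene 9.55 Mb away, had 9.92 to 21.8 CPM in wild type and 11.1 to 25.8 CPM in the knockout (summed 0.44, SE 0.23, adjusted p = 0.473).

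At the edges of the rule, Lrrc34 lies just inside at -9.98 Mb and Mynn just outside at -10.01 Mb, with summed differences of 0.23 and 0.05. On the other side Slc7a11 lies inside and Noct outside at 10.62 Mb, with 0.44 and -0.13. Exactly 3 libraries at the count minimum kept 6 genes in (Gm38080, Slc7a14, Gm37353, Sox2ot, Gm42752 and Gm9845), and 2 genes with 2 such libraries, Slc25a31 and 6430590A07Rik, stayed out. The exons of 30 of the 75 overlap an exon of another gene, 28 of them on the opposite strand. Of the 8 left-out genes none was called in left lungs, right lungs or summed, and the smallest adjusted p summed was that of Fat4 (0.0994, log2 difference 0.31). The fit of all 12 libraries called 3 of them, Bbs7 (-0.39, adjusted p = 0.0108), Spry1 (-0.30, adjusted p = 0.0151) and Fat4 (0.31, adjusted p = 0.0336), and Bbs7 and Spry1 separated fully over the 12 libraries.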

How the data were processed

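Lung RNA of 12 libraries was compared by genotype and side. The authors deposited unnormalised read counts for each gene, made with HISAT2 and featureCounts on GRCm38 after FastQC, per the submitters' processing notes. Their versions and the strand setting were not given in the sources used here. As used, the table ends within a row, so 1 incomplete row was left out, and the chromosomes beyond 1 to 7, 10, X and part of 8 were not analysed here. Symbols were matched by ID for 30915 genes (99.5%).

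Genes were filtered with filterByExpr (9519 kept), scaled with TMM and tested with edgeR 4.0.16 (R 4.3.3) in 1 fit of 4 groups. Same-numbered left and right counts were summed for both sides together. Benjamini-Hochberg adjustment ran over all tested genes. Same-numbered left and right libraries of a genotype correlated in their deviations from the group means at 0.253 to 0.486 (6 pairs), against -0.393 to -0.00284 for other numbers. Numbers shared across genotypes correlated at -0.121 to -0.0416. Pairing within a genotype is thus a hint from the data. Libraries of a group differed beyond sampling noise. The procedure was tested on simulated counts. Alternatives were DESeq2 1.42.0, limma 3.58.1 with voom and pairs as a random effect, other filters and scaling, blocks, leaving out each library or pair, and a window of 5 Mb.

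Sequences were compared over GENCODE vM21 transcripts. Genes were named by rule: called genes, the 4 tested genes nearest to Intu on each side, and the smallest p in each functional list without a call. Others named with values were picked after these were seen. The members and lists were chosen with earlier results of these data known.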

Additional observations from a re-analysis of the deposited data

How the results depend on the processing

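Of 592 values of the named genes under alternative settings, 529 kept their direction and their side of the threshold, 25 lost the call, 23 gained one and 15 changed sign. Beside each number of neighbours called stands the share of all tested genes called in the same setting. In left lungs (1 of 69 in the main test, 1.18% of all) it was 2 with DESeq2 (2.03%), 9 of 75 with no filter on low counts (2.72%), 3 of 75 with the filter of the membership rule (1.19%), 2 with the replicate number as a block (1.86%) and 0 with only the 6 left libraries (0.504%). It was 0 to 2 when single libraries were left out (0.504% to 0.914%): 0 without knockout left 1, 2 or 3 or wild-type left 2, and 2 without wild-type left 1. Without wild-type left 3 it was 1, but the gene was Gm5148 and not Rpl21-ps10. In right lungs (2, 1.51%) it was 6 of 75 with no filter (3.17%), 1 with only the 6 right libraries (1.15%) and 1 to 2 without single libraries (0.693% to 1.32%). With both sides summed (3, 1.46%) it was 5 with DESeq2 (3.19%), 5 of 75 with no filter (1.09%), 1 with the replicate number as a block (Gm5148; 0.42%), 8 for the mean of both contrasts over 12 libraries (5.7%) and 6 with limma-voom and pairs as a random effect (3.61%). It was 0 to 3 without single pairs (0.284% to 1.74%): 0 without knockout pair 3 or wild-type pair 2, 1 without knockout pair 2, and 2 without knockout pair 1 or wild-type pair 1. Without wild-type pair 3 it was 3, but the genes were Dcun1d1, Exosc9 and Gm5148. The 12-library fits treat left and right lungs of one number as separate or correlated samples, and the cause of the other changes was not tested. The pair block changed no call between sides or in the interaction (0 members).

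The 15 sign changes were of uncalled values when 1 library or pair was left out. In the main test these values included 0.20 for Gm2011 and -0.15 for Pcdh10 in left lungs and 0.20 for C230034O21Rik in right lungs. Their values over all such settings ran from -0.02 to 0.00 for Plk4, -0.07 to 0.39 for Gm2011 and -0.39 to 0.10 for Pcdh10 in left lungs, from -0.07 to 0.09 for Ccdc39, -0.19 to 0.66 for C230034O21Rik and -0.01 to 0.08 for Hspa4l in right lungs, and from -0.06 to 0.03 for Hspa4l, -0.11 to 0.04 for Mfsd8 and -0.36 to 0.04 for Pcdh10 summed. Depth limits the low genes most: Gm5148 rests on 16 knockout counts and Gm42752 on 11 wild-type counts.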
